A study of Mus musculus with 65 samples.

Results

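The regions marked by trimethylated histone H3.3 (H3.3K27me3) were compared with those marked by trimethylated histone H3 (H3K27me3) in undifferentiated wild-type mouse embryonic stem cells, at day 0. The members are the authors' filtered ChIP-seq peaks on 21 chromosomes that were found in both duplicates of an antibody, where a region is the merged stretch of overlapping peaks of the duplicates. This rule left 5133 H3.3K27me3 regions and 6870 H3K27me3 regions out of 56590 filtered peaks in the 4 libraries, and out of 240347 filtered peaks in all 16 ChIP libraries of the study. A region was called shared where it overlapped a region of the other antibody by at least 1 bp, and specific otherwise. Stem cells were grown on gelatin with serum and leukaemia inhibitory factor, and the strain and clone of the wild-type line are not given in the sources used here. The study also holds H3.3 and H3 libraries of the same day, day 6 embryoid bodies made with retinoic acid and without that factor, and RNA-seq of wild-type cells and of 2 edited lines, an H3.3A knockout and H3.3K27A. Both edited lines were made with CRISPR/Cas9, and H3.3K27A cells carry alanine in place of the lysine that is methylated; how many clones each line represents is not given. The H3.3K27me3 antibody is a custom Proteintech reagent and the H3K27me3 antibody is from Active Motif, and its name does not separate H3.3 from the other H3 proteins, so H3K27me3 signal can include H3.3K27me3. The deposited files name the H3K27me3 and H3 libraries after H3.1, but whether their antibodies separate H3.1 from H3.3 is not given in the sources used here.

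Histone H3.3 is a variant of H3 that is put into chromatin outside DNA replication, by the HIRA complex in active genes and by ATRX and DAXX in repeats, whereas H3.1 and H3.2 are put in when DNA is copied. Polycomb repressive complex 2 (PRC2) methylates lysine 27 of either kind of H3, and in embryonic stem cells the mark lies over the CpG-rich promoters of silent developmental genes, many of which are ready for use in differentiation. Demethylases and the loss of PRC2 from a promoter lower the mark when such a gene is turned on.

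The labelled cell type was checked on RNA of the same stage: the 10 stem cell markers summed to 6571, 6537 and 6630 CPM (counts scaled to library size) in the 3 wild-type day 0 libraries (2019 duplicates and 1 library of 2020). The 5 neural markers summed to 174 to 237 CPM, the 5 trophoblast markers to 86.7 to 112.8 CPM and the 5 mesoderm markers to 4.7 to 13.3 CPM. The 5 primitive endoderm markers summed to 6.9 and 6.0 CPM in 2019 and 32.8 CPM in 2020, and the 5 fibroblast markers to 14, 15.3 and 355.2 CPM. In the 2020 library Col1a2 stood at 173.08 CPM, Col1a1 at 145.22, Col3a1 at 22.51, Thy1 at 13.99 and Dcn at 0.38. In the 2019 libraries Thy1 was the highest of them, at 7.96 and 11.15 CPM, and Dcn was at 0 in both. The ChIP libraries have no such check, and the part of other cells in their peaks was not tested.

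Chromosome 8 stood apart from the rest of the genome in every day 0 library. Filtered peaks covered 55.6% and 59.0% of chromosome 8 in the H3.3K27me3 duplicates and 57.9% and 47.4% in the H3K27me3 duplicates, against 4.6% to 6.4% of the other autosomes in these 4 libraries. The H3 libraries covered 61.8% and 49.8% of chromosome 8 against 6.1% and 3.3% of the other autosomes, and the H3.3 libraries 36.7% and 45.2% against 12.4% and 15.6%. On the X chromosome filtered peaks covered at most 0.23% in any of the 8 libraries. Calls were made against a genome-wide mean with no input control, and neither the number of copies of a chromosome nor its part in the peaks was tested. Of the shared regions, 654 of 2903 (22.5%) and 84.9 of 150.8 Mb lay on chromosome 8, or 50.5 shared regions per 10 Mb against 0.2 to 14 on the other chromosomes. It held fewer of the specific ones: 138 of 1930 H3.3K27me3-only regions (7.2%) and 139 of 3545 H3K27me3-only regions (3.9%). Without chromosome 8, 4119 H3.3K27me3 and 5725 H3K27me3 regions were left, and the main comparisons are given with and without it.

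**Figure D1:**
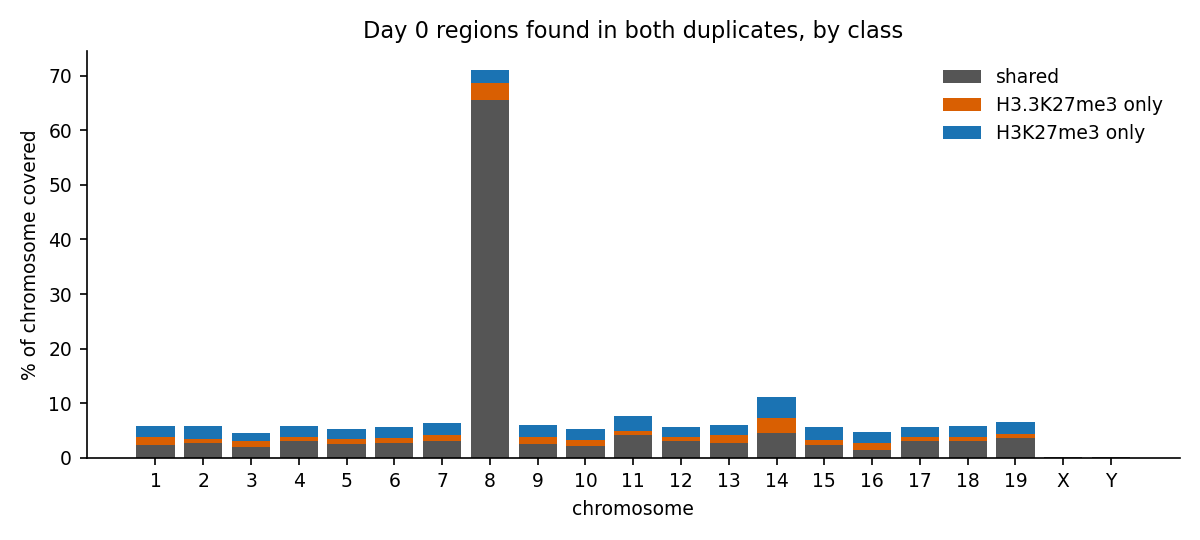
Share of each chromosome (%) covered by day 0 regions found in both duplicates, stacked by class. Shared regions cover 65.6% of chromosome 8 and at most 4.6% of any other chromosome.

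Both antibodies marked the promoters of developmental regulators, and 3 kinds of promoter carry the results that follow. The 250 bases upstream of the start site are shown for 2 homeobox genes marked with both antibodies (Hoxa13 and Emx1), for 2 genes marked with H3K27me3 only (Gsx1, a homeobox factor of the forebrain, and Bcl2, the inhibitor of apoptosis), and for 2 marked with H3.3K27me3 only (Rps15a, a ribosomal protein gene, and Vmn2r102, a vomeronasal receptor). They were read from the RefSeq assembly GRCm38.p6, the build named mm10 in the labels, on the strand of the gene and 5′ to 3′, with each CG dinucleotide in capitals. CG reads the same on both strands.
Hoxa13, chr6:52260881-52261130, minus strand, 35 CG: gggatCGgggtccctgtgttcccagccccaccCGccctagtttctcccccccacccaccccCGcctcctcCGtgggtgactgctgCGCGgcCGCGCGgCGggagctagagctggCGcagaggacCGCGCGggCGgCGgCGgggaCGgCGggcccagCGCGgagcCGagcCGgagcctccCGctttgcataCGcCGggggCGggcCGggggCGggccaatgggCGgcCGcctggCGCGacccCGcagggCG
Emx1, chr6:85187681-85187930, plus strand, 30 CG: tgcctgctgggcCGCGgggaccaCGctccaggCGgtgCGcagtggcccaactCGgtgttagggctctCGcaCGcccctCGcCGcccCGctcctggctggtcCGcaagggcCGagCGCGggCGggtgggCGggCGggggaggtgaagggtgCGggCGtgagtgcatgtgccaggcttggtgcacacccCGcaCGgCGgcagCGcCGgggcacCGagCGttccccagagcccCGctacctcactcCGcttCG
Gsx1, chr5:147188446-147188695, plus strand, 15 CG: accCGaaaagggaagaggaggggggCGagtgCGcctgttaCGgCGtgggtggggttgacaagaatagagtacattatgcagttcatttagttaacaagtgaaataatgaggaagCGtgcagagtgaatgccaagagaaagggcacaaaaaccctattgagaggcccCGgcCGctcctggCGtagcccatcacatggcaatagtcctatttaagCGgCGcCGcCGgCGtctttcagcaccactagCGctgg
Bcl2, chr1:106714291-106714540, minus strand, 36 CG: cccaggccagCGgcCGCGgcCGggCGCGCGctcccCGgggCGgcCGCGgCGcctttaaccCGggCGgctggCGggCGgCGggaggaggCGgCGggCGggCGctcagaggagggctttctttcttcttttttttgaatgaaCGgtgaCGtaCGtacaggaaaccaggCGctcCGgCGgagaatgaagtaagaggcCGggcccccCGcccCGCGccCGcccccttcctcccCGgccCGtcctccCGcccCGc
Rps15a, chr7:118116148-118116397, minus strand, 13 CG: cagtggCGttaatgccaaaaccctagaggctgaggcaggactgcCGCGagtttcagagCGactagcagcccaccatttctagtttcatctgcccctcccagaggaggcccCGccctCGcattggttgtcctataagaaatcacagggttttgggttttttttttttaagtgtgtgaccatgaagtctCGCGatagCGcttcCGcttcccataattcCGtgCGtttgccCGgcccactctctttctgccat
Vmn2r102, chr17:19660149-19660398, plus strand, 2 CG: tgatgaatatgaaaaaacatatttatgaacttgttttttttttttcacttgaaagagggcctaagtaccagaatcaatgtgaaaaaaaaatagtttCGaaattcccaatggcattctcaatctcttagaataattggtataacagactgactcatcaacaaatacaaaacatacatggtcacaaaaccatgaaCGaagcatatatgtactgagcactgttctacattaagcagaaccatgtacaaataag

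At least 1 CG was present in this window in 92.1% of all 24300 start sites, and 40.0% held 10 or more. The median was 11 CG for the 2524 promoters marked with both antibodies, of which 54.2% held 10 or more, 9 CG (47.0%) for the 2255 with H3K27me3 only, 8 CG (42.6%) for the 545 with H3.3K27me3 only and 5 CG (37.2%) for the 18976 with neither. Without chromosome 8 the promoters with H3.3K27me3 only fell to a median of 6 CG, the median of all promoters, and 35.8% held 10 or more, whereas those with both stayed at 11 CG and 55.6%. Promoters marked with both antibodies thus had the highest median, with wide overlap between the classes (quartiles of 4.8 and 20 CG against 2 and 15 for unmarked ones), and in the median the H3.3K27me3-only promoters of the other chromosomes had no more CG than promoters in general.

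The libraries of the 2 antibodies differed most in their strong peaks. The H3.3K27me3 libraries held 14783 and 12676 filtered peaks and the H3K27me3 libraries 14100 and 14985, from 71.13 M, 49.87 M, 50.09 M and 51.49 M tags used by the peak caller. Enrichment is the caller's fold, the pileup at the summit over the genome-wide mean pileup, each plus 1. Its median over peaks was close in all 4 (2.21 and 2.37 against 2.36 and 2.46), but peaks of at least 4-fold made up 1.51% and 1.78% of the H3.3K27me3 lists against 8.17% and 9.89% of the H3K27me3 lists (1.64 ± 0.19% against 9.03 ± 1.22%, SD, n = 2). Peaks found in the duplicate made up 42.1% and 44.4% of the H3.3K27me3 lists and 51.5% and 54.6% of the H3K27me3 lists. Start sites inside peaks were 16.04% and 15.52% of all genes with H3.3K27me3 and 22.12% and 20.53% with H3K27me3. H3.3K27me3 peaks were poorer in CG (8.09 and 7.74 per kb against 9.10 and 9.40, medians) and richer in repeat-masked sequence (27.61% and 27.22% against 24.59% and 23.46%). These groups did not overlap, yet 2 against 2 libraries allow no exact two-sided permutation p below 0.333, and every non-overlapping value among the 14 compared had that p (0.466 after Benjamini-Hochberg adjustment). Peak number and median width overlapped between the antibodies (exact permutation p = 0.667 for each, n = 2).

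Of the H3.3K27me3 regions, 3203 of 5133 (62.4%) overlapped an H3K27me3 region, and 3325 of 6870 H3K27me3 regions (48.4%) overlapped an H3.3K27me3 region. Regions common to both covered 107.2 Mb, which is 68.8% of the length of the H3.3K27me3 regions and 57.8% of that of the H3K27me3 regions. Without chromosome 8 the overlaps fell to 56.5% and 40.5% of the regions and to 40.3 Mb, or 54.7% and 37.1% of the lengths. Most of the H3.3K27me3 mark of the region lists thus lay on H3K27me3 regions in these counts, and the H3K27me3 lists held more regions of their own. With 1 library standing for an antibody the shared part ran from 35.7% to 69.6% of the H3.3K27me3 regions and from 29.1% to 67.2% of the H3K27me3 regions. Limited to peaks of at least 4-fold, 141 and 828 regions were left, and 70.9% of the H3.3K27me3 regions but 12.2% of the H3K27me3 regions were shared. The specific classes depend on the threshold of the filtered lists, whose weakest peaks had a fold of 2.09 and 2.37 with H3.3K27me3 and 2.36 and 2.31 with H3K27me3, while the strongest calls below their p-value limit had 1.98, 2.21, 2.2 and 2.15. Among the 1930 H3.3K27me3-only regions, 1215 (63.0%) had no filtered H3K27me3 peak in either duplicate, and 439 (22.7%) had not even an unfiltered H3K27me3 call. Among the 3545 H3K27me3-only regions, 1530 (43.2%) had no filtered H3.3K27me3 peak and 217 (6.1%) no unfiltered call. Most regions called specific to 1 antibody therefore had some call with the other in at least 1 duplicate. Such calls are also frequent with H3. Summits of H3K27me3 calls lay in 63.4% and 47.5% of the H3.3K27me3-only regions, about as often as those of H3 (62.5% and 47.8%). Summits of H3.3K27me3 calls lay in 73.8% and 81.3% of the H3K27me3-only regions, against 49.7% and 30.2% for H3.

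Shared regions were the widest, at a median of 27.2 kb, and 66.2% of them held a start site. A shared region joins the regions of both antibodies, which adds to its width, and a wider region meets a start site more often. H3K27me3-only regions had a median of 13.2 kb and 48.5% held a start site, and H3.3K27me3-only regions a median of 12.1 kb and 14.3%. The last class lay in other sequence: it had a median GC content of 40.4%, 7.01 CG per kb and 35.9% repeat-masked bases, close to the genome at 41.7%, 8.26 per kb and 36.4%. Shared and H3K27me3-only regions had 44.5% GC in both classes, 13.14 and 12.85 CG per kb, and 25% and 23.1% masked bases. Without chromosome 8 the shared regions were narrower (23.0 kb) and richer in start sites (72.4%) and CG (14.57 per kb), and the other 2 classes moved little (11.8 kb, 13.7% and 6.93 per kb for H3.3K27me3 only). Of the H3.3K27me3-only regions, 43.1% lay in a gene body, against 79.2% of the shared and 70.4% of the H3K27me3-only regions. Where such a region held no start site, the nearest lay at a median distance of 49.1 kb. An H3.3 peak of the same day overlapped 37.7% of the H3.3K27me3-only regions, 29.8% of the H3K27me3-only regions and 49.7% of the shared regions, and the last share was 41.5% without chromosome 8. An H3 peak overlapped 18.8%, 7.7% and 33.8% in the same order, and 14.8%, 5.7% and 17.3% without chromosome 8. Wider regions meet a peak more often, and the overlap was not scaled to width. The authors' deposited table of H3.3 gave a signal per kb of 32.5 and 32.4 (medians, day 0 duplicates) in its 908 regions on H3.3K27me3-only regions, 30.4 and 30.6 on H3K27me3-only regions, 29.4 and 29.3 on shared regions and 29.9 and 29.8 elsewhere. In the authors' deposited H3 table the medians were 28.0 and 27.6 on H3.3K27me3-only regions, 27.1 and 26.5 on H3K27me3-only regions, 29.9 and 29.9 on shared regions and 26.2 and 25.8 elsewhere. Over all chromosomes H3.3K27me3-only regions thus had the highest median of the classes for H3.3, in both duplicates, and shared regions had it for H3. These medians were not computed without chromosome 8, so its part in the order was not tested.

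**Figure D2:**
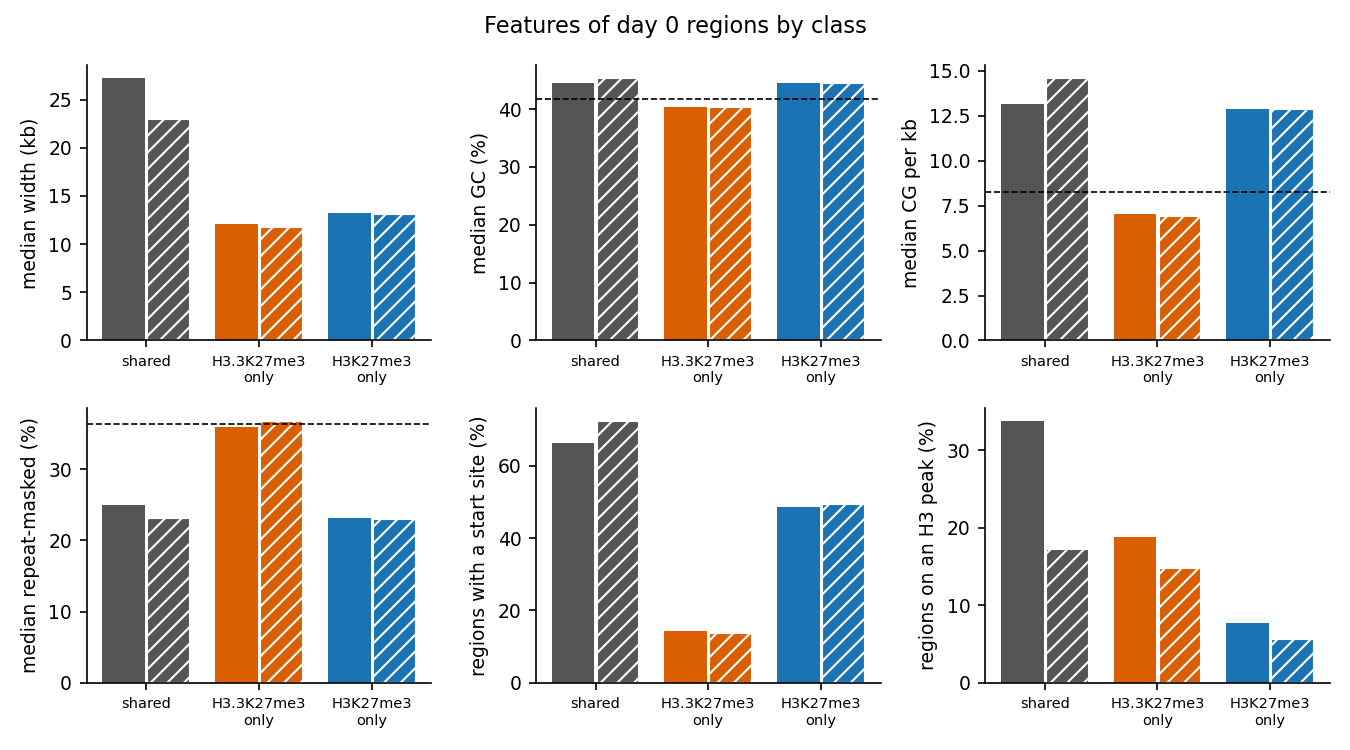
Median width, GC content, CG per kb and repeat-masked share, and the percent of regions with a start site or an H3 peak, for the 3 classes of day 0 regions. Plain bars are all chromosomes, hatched bars leave out chromosome 8, and dashed lines are the genome; H3.3K27me3-only regions sit near the genome in CG and masked bases.

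Enrichment over the 8378 regions of both antibodies together was tested with limma on the log2 of the highest fold in each library. It was higher with H3.3K27me3 in 1003 regions (12% of those tested) and higher with H3K27me3 in 3474 (41.5%) at a Benjamini-Hochberg adjusted p below 0.05. The median difference was -0.30 on the log2 scale (H3.3K27me3 minus H3K27me3). Folds of 2 different reagents were compared as deposited, so any difference in antibody efficiency is part of this contrast. It cannot be told apart from a difference in the amount of the marks, here or at the single regions and genes below. The classes were drawn from the same libraries, so the calls within them are a description: 976 of the 1003 regions were H3.3K27me3 only, and of these 1930 regions 1159 had a library without a call, which was given the lowest fold listed in that library. Where all 4 libraries had a call, 107 regions were higher with H3.3K27me3 and 2300 with H3K27me3 of 5987. The count higher with H3.3K27me3 also fell to 59 and 63 without H3K27me3 replicate 1 or 2, and to 209 without H3.3K27me3 replicate 2, and the count higher with H3K27me3 fell to 1618 without that same library. Centring each library on its median moved the median difference to -0.13 and the split of calls from 22.4% to 42.5% higher with H3.3K27me3 (1403 against 1902). Among the 2903 shared regions, 24 were higher with H3.3K27me3 and 1120 with H3K27me3, at a median difference of -0.34, and without chromosome 8 the counts were 20 and 1024 of 2249.

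The median fold in shared regions was 2.56 and 2.68 with H3.3K27me3 and 3.3 and 3.69 with H3K27me3. In H3.3K27me3-only regions it was 2.21 and 2.37 with the own antibody and 1.89 and 2.00 with the other, and in H3K27me3-only regions 2.52 and 2.61 against 1.86 and 2.05. At least 4-fold enrichment with the own antibody was reached in 0.8% and 0.9% of the H3.3K27me3-only regions and in 5.7% and 9.1% of the H3K27me3-only regions, so few regions of the former class were strong. Across all regions the log2 folds of duplicates correlated at Pearson r = 0.73 for H3.3K27me3 and 0.85 for H3K27me3, and those of the 2 antibodies at 0.44 to 0.53. H3.3K27me3 correlated with H3 at 0.59 to 0.64 and H3K27me3 with H3 at 0.23 to 0.29. Over the 7400 regions off chromosome 8 and not high in H3, the same ranges were 0.63, 0.84, 0.33 to 0.46, 0.39 to 0.43 and 0.06 to 0.10. Spearman coefficients, which use ranks, were lower over all regions than Pearson r. In the same order they were 0.58, 0.82, 0.25 to 0.37, 0.32 to 0.36 and 0.05 to 0.09. These are correlations across regions, which share libraries, depth and base composition, and are given without a p.

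**Figure D3:**
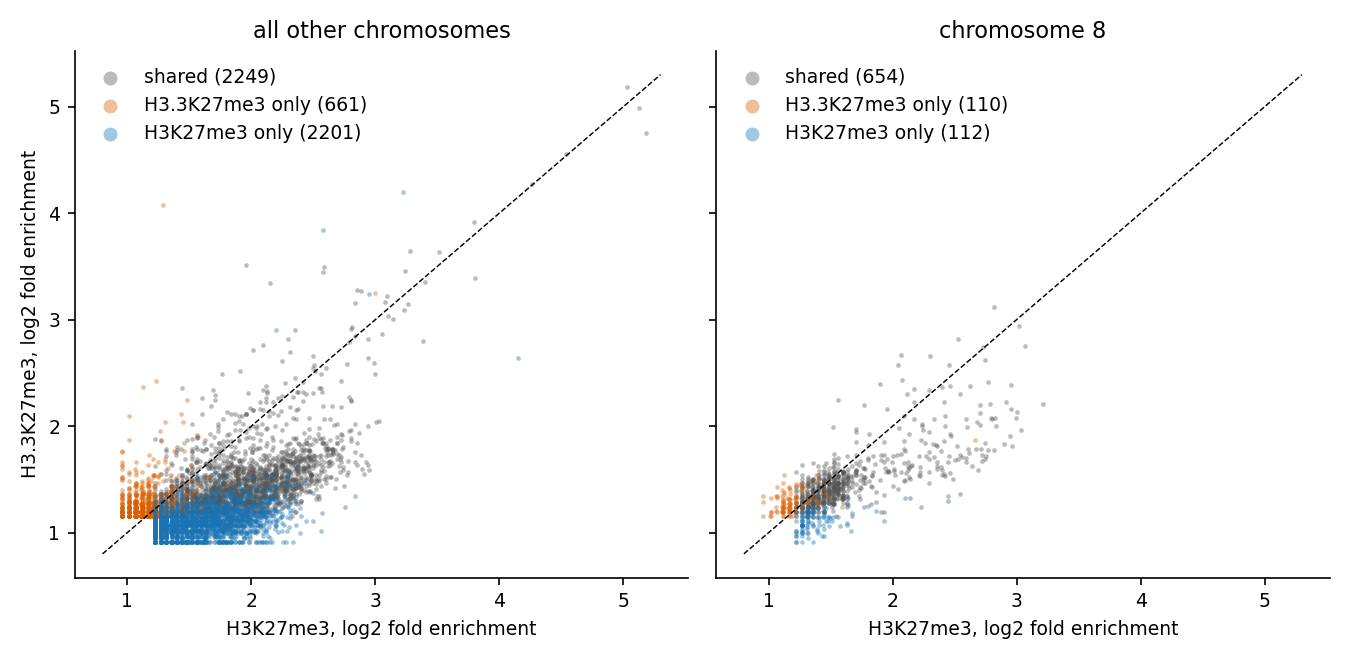
Mean log2 fold enrichment of the duplicates with H3K27me3 (x axis) and H3.3K27me3 (y axis) for each region with a call in all 4 libraries, off chromosome 8 (left) and on it (right); the dashed line marks equal values. Most shared regions lie below the line, and a few strong ones lie on it.

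The highest shared regions were not developmental genes. Of the 10 with the highest enrichment in both antibodies, 9 were at least 5-fold enriched in both H3 libraries as well, and that at chr9:2999869-3038518 was 96.1% repeat-masked. The region chr11:3100119-3200198, with the start of the pseudogene Pisd-ps1, had folds of 33.46 and 39.31 with H3.3K27me3, 35.08 and 30.27 with H3K27me3, 38.92 and 37.53 with H3.3 and 31.83 and 33.67 with H3. All 8 libraries thus lay between 30.27 and 39.31 there, and in all 57 regions were that high in H3, of which 49 were shared. The exception among the 10 was chr1:171059697-171078687, with the starts of Fcgr3, a receptor for antibodies, and Mir6546. Its folds were 10.57 and 10.42 with H3.3K27me3, 13.53 and 14.45 with H3K27me3 and 3.62 and 3.23 with H3, so that both methylation libraries stood above H3. Among shared regions not high in H3, the region of Rrs1, a ribosome assembly factor, and Adhfe1 (chr1:9539384-9550425) had folds of 5.93 and 5.53 with H3.3K27me3 and 5.19 and 6.30 with H3K27me3, against 2.46 and 1.96 with H3. The limma difference was 0.00 ± 0.21 (SE) on the log2 scale, with an adjusted p of 0.997. Because limma pools the spread over all regions, the SE and adjusted p of a region reflect its own duplicates only in small part. A region of 3 predicted genes (Gm13271, Gm13283 and Gm13286, 21.7 kb on chromosome 4) had 6.04 and 6.00 against 7.71 and 8.14.

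The strongest region found with H3.3K27me3 only was chr6:3191782-3203956 (12.2 kb), with folds of 15.22 and 18.63 with H3.3K27me3, 2.04 and 2.92 with H3K27me3, 16.59 and 16.42 with H3.3, and 2.59 and 3.23 with H3. Its difference between the antibodies was 2.78 ± 0.21 on the log2 scale (limma, Benjamini-Hochberg adjusted p = 1.89e-27), the largest in that direction, and the H3.3K27me3 and H3.3 libraries were high where the H3K27me3 and H3 libraries were low. Peaks of the same libraries placed the region in its class, so this p-value is a description and no separate support. It holds no start site of the gene list, and the nearest, of Gm8579, lies 84.6 kb away. The 250 bases around its summit are shown because the sequence tells what kind of DNA it is: the gene of 18S ribosomal RNA exists in many near-identical copies, and 240 of these 250 bases equal those of the annotated 18S-related locus Rn18s-rs5 (chr17:39846354-39848202) in an ungapped comparison.
Summit, chr6:3201378-3201627, plus strand, 22 CG: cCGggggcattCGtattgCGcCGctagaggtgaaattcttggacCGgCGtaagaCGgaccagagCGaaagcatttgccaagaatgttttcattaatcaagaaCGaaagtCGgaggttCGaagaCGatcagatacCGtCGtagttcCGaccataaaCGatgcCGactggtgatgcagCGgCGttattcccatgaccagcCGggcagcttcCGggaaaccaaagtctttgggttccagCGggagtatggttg

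None of these 250 bases is repeat-masked, and whether reads of other copies were placed here was not tested. Regions near the end of the Y chromosome showed the same order of antibodies. The shared region chrY:90717408-90744602 had 13.83 and 9.47 with H3.3K27me3, 3.93 and 3.84 with H3K27me3, 15.04 and 16.26 with H3.3, and 3.62 and 4.63 with H3. The region chrY:90797458-90814010 had 11.27 and 9.16, 4.4 and 4.46, 17.21 and 17.36, and 5.31 and 6.03 in the same order. At chr13:119595933-119602583, a repeat-rich stretch 21.2 kb from Ccl28, they were 6.04 and 4.74, 1.89 and 2.92, 9.77 and 9.38, and 3.62 and 2.95. In each of these regions the H3.3K27me3 and H3.3 duplicates were all above the H3K27me3 and H3 duplicates. The regions come from the largest differences between the 2 methylation antibodies, so the order of those 2 is a description. H3.3 was not above H3 in all regions of that list. At chr9:56260330-56268816 H3.3 had 3.72 and 3.44 and H3 6.08 and 5.19. At chr14:19618647-19628600 they overlapped, at 2.02 and 4.22 against 2.46 and 3.65. At chr19:58113273-58117479 H3.3 had 4.03 and 7.35, and H3 had 5.56 in replicate 1 and no call in replicate 2. Of the 10 regions with the largest difference towards H3.3K27me3 none held a start site, 3 of them are on the Y chromosome, and 3 were at least 5-fold enriched in both H3 libraries. The filtered lists leave out a few very high calls, so a class can differ from the folds: chr9:123923174-123947428 counts as H3K27me3 only, with 13.71 and 15.0 for H3.3K27me3 against 5.82 and 6.15, because the former call is not in the filtered list of H3.3K27me3 replicate 1. Of the 10 strongest H3.3K27me3-only regions 1 held a start site, that of the nuclear import factor Kpna1, in a region high in H3 (8.41 and 9.82) and in H3.3 (11.94 and 12.35). The Kpna1 region had 5.69 and 6.95 with H3.3K27me3, no call in H3K27me3 replicate 1 and 7.38 in H3K27me3 replicate 2. By these folds it was thus not clearly specific to H3.3K27me3. Among those not high in H3 the start site was that of Vmn2r102, whose promoter is shown above with 2 CG. Its duplicates differed more than the antibodies did: 2.21 and 6.32 with H3.3K27me3 and 4.4 and 2.00 with H3K27me3.

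The regions with the largest difference towards H3K27me3 mostly held promoters. Of those 10 regions 8 had a start site, and all but 1 had duplicates that did not overlap between antibodies. The 10 were picked by this difference in the same libraries, so their p-values and the order of their duplicates are a description. At Bcl2 (chr1:106709079-106716340, 30.16 CG per kb) the folds were 1.86 and 2.21 with H3.3K27me3 and 5.51 and 6.30 with H3K27me3, a difference of -1.54 ± 0.22 on the log2 scale (limma, adjusted p = 3.14e-08). At Nptx1, a neuronal pentraxin that gathers glutamate receptors, they were 2.21 and 2.53 against 7.24 and 6.30 (-1.52), and at Gsx1 2.90 and 2.21 against 6.61 and 7.68 (-1.49). At Foxb2, a forkhead factor, they were 3.02 and 3.00 against 6.61 and 9.07 (-1.36), although that region was shared. Both H3K27me3 duplicates were above both H3.3K27me3 duplicates at each of these 4 genes. Ankrd60, Zhx1, a zinc finger and homeobox repressor, and Nab1, a co-repressor of the EGR factors, were also among them, with differences of -1.39, -1.39 and -1.37. The region whose duplicates overlapped was chr19:61195766-61224605, 3.9 kb from Csf2ra, with 1.98 and 19.73 for H3.3K27me3 against 17.30 and 18.13. Despite this gap between duplicates its limma SE was 0.24, close to the 0.22 at Bcl2. H3 replicate 2 was at 15.85 there and H3 replicate 1 had no call, and the call of 19.73 is not in the filtered list of H3.3K27me3 replicate 2. The most enriched regions of the H3K27me3-only class also held H2-K1, a class I histocompatibility gene, and Barx2, a homeobox factor, at 2.09 and 2.21 against 3.93 and 7.53, and 3.02 and 2.21 against 5.19 and 6.15.

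By start site, 2524 of 24300 genes (10.4%) lay in regions of both antibodies, 545 (2.2%) in an H3.3K27me3 region only, 2255 (9.3%) in an H3K27me3 region only and 18976 (78.1%) in neither. On chromosome 8 were 586 of the first, 168 of the second and 90 of the third group; without it the shares of the remaining genes were 8.4%, 1.6%, 9.4% and 80.6%. The value given for a gene below is that of the whole region its start site falls in, joined over both antibodies. HOX genes, which set position along the body axis, were marked with both antibodies at all 39 start sites, in 4 regions with median folds of 4.12 and 4.18 with H3.3K27me3 and 7.08 and 7.53 with H3K27me3. The Hoxa cluster formed 1 region of 190.2 kb with folds of 4.18 and 4.10 against 8.49 and 7.84, and 2.07 and 2.10 with H3 (difference -0.98 ± 0.21 log2, limma adjusted p = 0.00015). The H3K27me3 duplicates lay above the H3.3K27me3 duplicates, which lay above H3. Its genes, Hoxa13 among them, share this value because they share the region. Of the other homeobox factors 47 of 54 were marked with both, 6 with H3K27me3 only (Cdx1, Cdx4, Nkx6-2, Six2, Six3 and Vax1) and 1 with neither (Lhx3). Isl2, a motor neuron factor, had 5.69 and 4.10 with H3.3K27me3 against 7.24 and 6.61 with H3K27me3, and the linked Dlx1 and Dlx2, factors of forebrain interneurons, 4.53 and 4.89 against 6.92 and 7.07. Emx1, a factor of the dorsal forebrain, had the wider gap, 3.02 and 3.32 against 6.45 and 8.91 (-1.26 ± 0.21 log2). The 3 regions overlapped in H3K27me3, and Emx1 was below the other regions in H3.3K27me3 in both duplicates.

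PAX, SOX, FOX and GATA factors, which specify cell types of all germ layers, were marked with both in 29 of 34 cases, with H3K27me3 only in 4 (Foxj1, Foxn4, Gata4 and Sox18) and with neither in 1 (Sox3). Pax2, a kidney and midbrain factor, had 3.37 and 3.00 against 6.29 and 7.53, and Sox21, a neural progenitor factor, 4.30 and 3.79 against 5.82 and 6.92. T-box and basic helix-loop-helix factors were marked with both in 24 of 31 cases, with H3K27me3 only in 5 and with H3.3K27me3 only in 1, Tbr1, a cortical neuron factor whose region as a whole had 3.72 and 3.47 against 4.88 and 5.07. Tbx2, a heart and limb factor, had 3.14 and 2.68 against 6.29 and 7.38. Signalling ligands and receptors were marked with both in 24 of 38 cases and with H3K27me3 only in 6 (Fgf3, Fgf10, Fgf15, Nog, Wnt2 and Wnt3a). The 8 without either mark included Nodal, Lefty1 and Lefty2, ligands and inhibitors of a pathway used by stem cells. Wnt1 and Wnt10b share a region with 3.6 and 3.32 against 5.66 and 7.07. Over the marked regions of these 4 developmental lists (homeobox; PAX, SOX, FOX and GATA; T-box and helix-loop-helix; signalling) the median folds were 2.84 to 3.32 with H3.3K27me3 and 4.56 to 5.69 with H3K27me3, against 2.32 to 2.37 and 3.15 to 3.38 over all marked start sites. Clustered protocadherins, cell surface proteins of neurons, were marked with both at 52 of 58 start sites, in 9 regions. None of the 58 was without a mark. Of the 9 regions 3 were called, each higher with H3K27me3, where 41.5% of all 8378 regions were called in that direction. This count is thus not particular to the protocadherins. The alpha cluster region that holds Pcdha1 had 3.95 and 3.95 against 3.62 and 4.3 (0.00 ± 0.21 log2, limma adjusted p = 0.997), and the beta cluster region that holds Pcdhb10 had 3.83 and 3.16 against 4.09 and 3.84 (-0.19 ± 0.22, adjusted p = 0.469). The gamma cluster region that holds Pcdhga6 had 4.07 and 5.05 against 5.82 and 7.53 (-0.55 ± 0.21 log2, limma adjusted p = 0.0207).

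**Figure D4:**
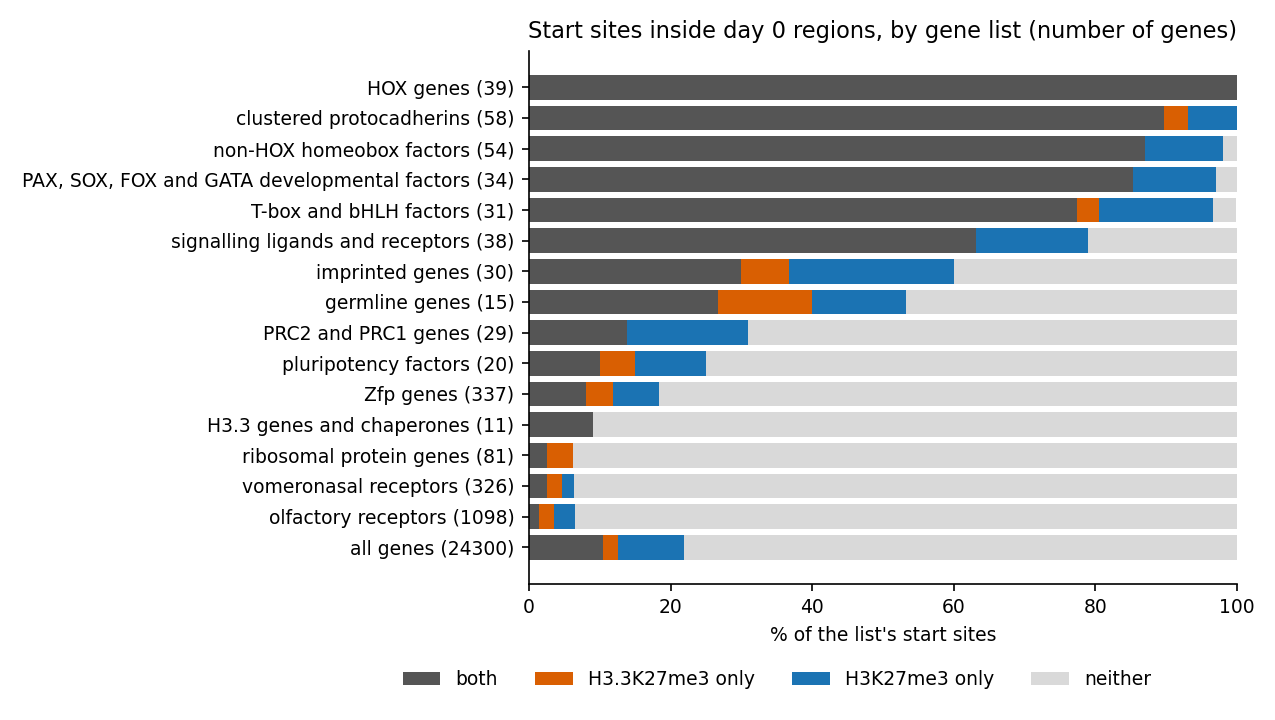
Percent of start sites of each gene list (number of genes in parentheses) that lie in day 0 regions of both antibodies, of 1 antibody only or of neither. The share in both runs from 100.0% for HOX genes to 1.4% for olfactory receptors, against 10.4% of all genes.

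H3.3K27me3-only start sites numbered 1 in the HOX and 4 developmental lists together. They made up 13.3% of germline genes, 6.7% of imprinted genes, 3.9% of Zfp genes and 3.7% of ribosomal protein genes, against 2.2% of all genes, from 2, 2, 13 and 3 start sites. Germline genes, silent in most somatic cells, were marked with both in 4 of 15 cases, with H3.3K27me3 only in 2 (Hormad1 and Tex19.1) and with H3K27me3 only in 2 (Dazl and Tdrd1). Ddx4, a germ cell RNA helicase, had 4.07 and 3.95 with H3.3K27me3 and 4.25 and 4.00 with H3K27me3, with a difference of -0.04 ± 0.21 (limma adjusted p = 0.889). The 4 values overlapped, unlike those of the HOX, homeobox, PAX and SOX regions named above. Hormad1, a meiotic chromosome axis gene, had 2.32 and 2.37 against 2.2 and 2.46, values that overlap although it counts as H3.3K27me3 only, and Tex19.1, a repressor of transposons, had 2.56 and 2.53 against 4.25 and 4.76 over its whole region. Imprinted genes, expressed from 1 parental copy, were marked with both in 9 of 30 cases, with H3.3K27me3 only in 2 (Meg3 and Peg3) and with H3K27me3 only in 7. Igf2, a fetal growth factor, had 2.79 and 3.63 against 5.03 and 4.76, and the region of Cdkn1c, a cell cycle inhibitor, 3.14 and 3.32 against 4.4 and 5.99. Of 81 ribosomal protein genes 76 had no mark, 2 had both, and 3 had H3.3K27me3 only: Rpl28, Rpl37a and Rps15a. Rps15a had 2.21 and 2.37 with H3.3K27me3 and no H3K27me3 call in either duplicate. These folds were at or near those of the weakest filtered peaks of the 2 libraries (2.09 and 2.37), and H3.3 had 2.33 and 2.81 there. RNA of Rps15a was high, at 514.59, 539.96 and 256.73 CPM, so its promoter counts as marked only by calls near the threshold. Rpl37a lay in a 67.8 kb region with 6.04 and 6.95 against 4.72 and 5.22 (0.38 ± 0.21, adjusted p = 0.106). Ribosomal protein genes have many processed copies, so their reads and RNA counts are uncertain. Of 337 Zfp genes, many of them repressors of repeats, 27 had both marks (14 on chromosome 8), 13 H3.3K27me3 only (5 on chromosome 8) and 22 H3K27me3 only. Olfactory receptors had both at 15 of 1098 start sites, H3.3K27me3 only at 23 (2.1%) and H3K27me3 only at 33, and vomeronasal receptors 8, 7 (2.1%) and 6 of 326. These 2 families, silent outside sensory neurons, were marked with both antibodies at 1.4% and 2.5% of their start sites against 10.4% of all genes, and with H3.3K27me3 only at about the share of all genes (2.2%). Pluripotency factors were mostly unmarked, at 15 of 20 start sites. Nanog and the linked Dppa3 fell in a 158.3 kb region with 3.37 and 3.00 against 4.25 and 3.38, although Nanog RNA stood at 396.0 to 581.4 CPM. Klf5 counted as H3.3K27me3 only, with 2.09 and 2.37 against 2.36 and 2.31. Of 29 PRC2 and PRC1 genes 4 had both marks, Bmi1 among them, 5 H3K27me3 only and 20 neither. Bmi1, a PRC1 subunit, had 4.18 and 3.95 against 6.13 and 6.76. Among 11 genes for H3.3 or its chaperones, 1 was marked, Asf1b, on chromosome 8.

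RNA of the same stage was read as a measure that the classes did not use, although fewer cells that express a gene and less RNA per cell cannot be told apart in bulk samples. Genes at 1 CPM or more made up 42.9%, 43.7% and 47.9% of those marked with both antibodies in the 3 wild-type day 0 libraries, 49.7%, 49.2% and 53.8% with H3K27me3 only, 52.8%, 53.2% and 54.5% with H3.3K27me3 only, and 48.1% to 48.2% with neither. The upper quartile of genes with both marks lay at 5.15 CPM in 2019 replicate 1, that of H3K27me3-only genes at 9.13, that of unmarked genes at 36.97 and that of H3.3K27me3-only genes at 49.13. Genes with H3K27me3, alone or with H3.3K27me3, thus had lower upper quartiles than unmarked genes, and genes with H3.3K27me3 only had a higher one when chromosome 8 was counted. This last class depended on chromosome 8: without it 45.1%, 45.1% and 48.8% of H3.3K27me3-only genes were at 1 CPM or more, with an upper quartile of 16.38 CPM in 2019 replicate 1, against 48.2%, 48.3% and 48.1% and 36.97 CPM for unmarked genes, and 39.1%, 39.6% and 45.8% and 2.92 CPM for genes with both marks. The upper quartile of H3.3K27me3-only genes was then below that of unmarked genes.

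Day 0 marks were then set beside the RNA change on differentiation in the 2019 wild-type libraries (2 at each day), where 5627 of 13593 genes rose at day 6 (41.4%) and 4971 fell (36.6%, edgeR quasi-likelihood test, Benjamini-Hochberg adjusted p below 0.05). Of tested genes with both marks 1180 of 1725 rose (68.41%) and 310 fell (17.97%), at a median change of 1.94 on the log2 scale. With H3K27me3 only 956 of 1506 rose (63.48%) and 271 fell (17.99%, median 1.22), with H3.3K27me3 only 132 of 331 rose (39.88%) and 135 fell (40.79%, median 0.05), and of unmarked genes 33.43% rose and 42.49% fell (median -0.12). Over all tested genes the median was 0.09. With chromosome 8 counted, the H3.3K27me3-only class was close to the background of 41.4% and 36.6%, whereas both classes with H3K27me3 held more genes that rose. Without chromosome 8 the share that rose was 73.51% with both, 64.91% with H3K27me3 only and 49.29% with H3.3K27me3 only, where 33.18% fell. Of all tested genes 41.39% then rose and 36.34% fell. The H3.3K27me3-only class thus also held more genes that rose, at a median of 0.33 against 0.09, but fewer than the classes with H3K27me3. The classes were not matched for starting level, and the differences between them were not tested.

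**Figure D5:**
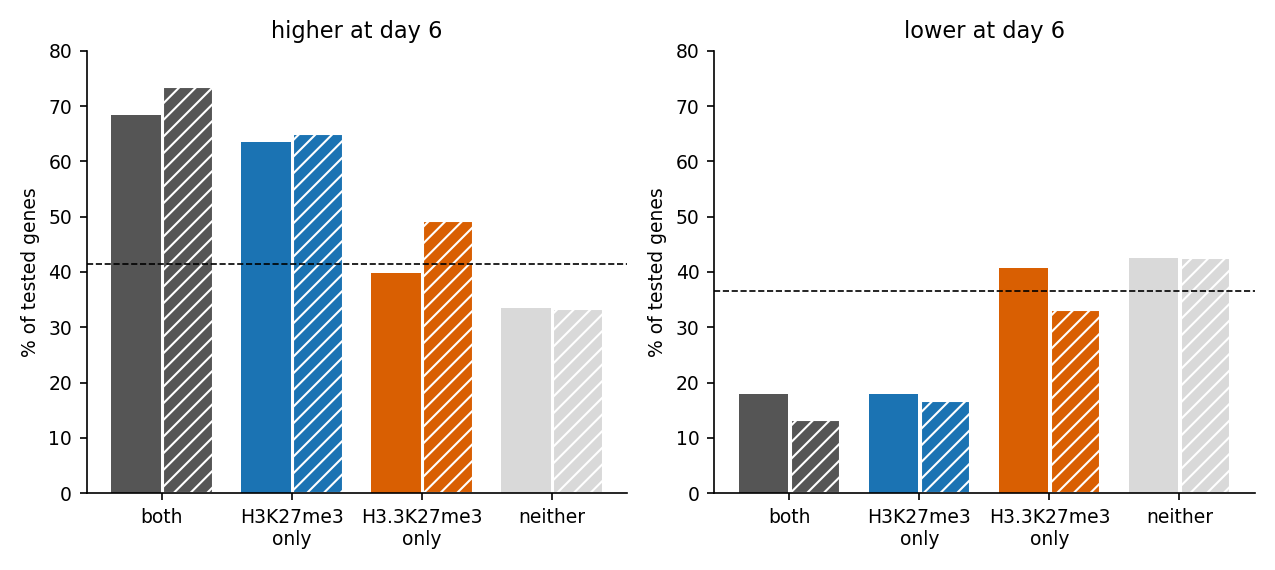
Percent of tested genes called higher (left) or lower (right) at day 6 than at day 0 in wild-type RNA of 2019, by the class of their start site at day 0; hatched bars leave out chromosome 8 and dashed lines are all tested genes. Genes with both marks rise in 68.41% and H3.3K27me3-only genes in 39.88%.

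The authors' deposited H3K27me3 table holds 10485 regions, of which 3195 were lower at day 6 (30.5%) and 270 higher (2.58%) at a false discovery rate below 0.05. It shares the day 0 H3K27me3 libraries with the classes, so its values are given as a description. Lower at day 6 were 1630 of 3073 regions on shared regions (53.0%, or 66.9% without chromosome 8), 1369 of 3460 on H3K27me3-only regions (39.6% and 40.5%), 44 of 397 on H3.3K27me3-only regions (11.1% and 13.7%) and 3.8% of those on none. In the authors' deposited table the share that was lower at day 6 was thus highest where both antibodies had a day 0 region. These regions also began with the highest H3K27me3 signal, at day 0 medians of 35.2 and 36.6 per kb against 30.3 and 31.1 on H3K27me3-only regions. The median log2 difference (day 0 minus day 6) was 0.26 and 0.24 in these 2 classes, and 0.35 and 0.24 without chromosome 8. The classes were not matched for starting signal. An equivalent table for H3.3K27me3 was not analysed here.

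Finally, RNA of H3.3K27A cells was set against that of H3.3A knockout cells at day 0 (2 libraries each), where 68 of 14760 genes were higher (0.461%) and 119 lower (0.806%, edgeR quasi-likelihood test, Benjamini-Hochberg adjusted p below 0.05). H3f3a, the gene of H3.3A, stood at 22.6 and 21.0 CPM in the knockout and at 21.6 and 24.0 CPM in H3.3K27A, against 128.2 CPM in the wild-type library of 2020, so that both edited lines were low in it. H3f3b, the other gene of H3.3, stood at 861.4 and 909.7 CPM in the knockout, 493.6 and 496.9 in H3.3K27A and 794.4 in the wild type. Higher were 13 of 1869 genes with both marks (0.70%), 11 of 1671 with H3K27me3 only (0.66%), 4 of 360 with H3.3K27me3 only (1.11%) and 0.36% of unmarked genes. Lower were 31 (1.66%), 23 (1.38%), 3 (0.83%) and 0.57% in the same order. Both directions were more frequent in the marked classes than in unmarked genes, by few genes, and these differences between classes were not tested. Without chromosome 8 the genes with both marks had 9 higher (0.62%) and 21 lower (1.44%) of 1462, and the H3.3K27me3-only class 4 higher (1.72%) and 3 lower (1.29%) of 233. The calls rest on all 4 libraries: without any 1 of them 2 to 3 genes were higher and 16 to 23 lower, where the spread of the single library left in a group was taken from the other groups. Among genes with both marks, Hoxa3 was higher in H3.3K27A, at 2.39 and 2.18 CPM against 0.95 and 0.61 in the knockout and 1.64 in the wild-type library (1.57 ± 0.26 log2, adjusted p = 0.0224). Hoxa10 was at 4.18 and 3.71 CPM against 1.46 and 1.98 (1.19 ± 0.20, edgeR adjusted p = 0.0234). The primitive endoderm genes Gata6 and Sox17, also with both marks, were lower: Gata6 at 4.25 and 5.24 CPM against 20.69 and 19.47, and Sox17 at 0.53 and 0.97 against 4.65 and 4.62. The wild-type library lay between, at 8.74 and 1.58 CPM. The 5 primitive endoderm markers, 4 of them with both marks, summed to 18.7 and 21.9 CPM in H3.3K27A and 78.5 and 74.7 in the knockout. The 5 mesoderm markers summed to 29.4 and 27.9 CPM in H3.3K27A against 13.6 and 14.6, and the 10 stem cell markers to 7870.7 and 8022.2 against 6914.4 and 7050.8. The 5 fibroblast markers summed to 382.1 and 413.2 CPM against 522.8 and 403.4, with 355.2 in the wild-type library. Trophoblast markers summed to 67.6 and 68.2 CPM against 80.4 and 82.7, and neural markers to 145.3 and 146.5 against 145.3 and 143.2. The part of other cells in these calls was not tested. Dkk1, a secreted WNT inhibitor, was at 0.80 and 0.56 CPM against 5.16 and 4.68. Tbx3, a pluripotency factor with H3K27me3 only, was higher, at 302.1 and 275.7 CPM against 153.0 and 170.2, and Peg3, an imprinted gene with H3.3K27me3 only, lower, at 44.27 and 45.02 against 64.55 and 62.98. Zhx1, of the largest H3K27me3-only differences, was higher, at 15.53 and 17.91 CPM against 9.93 and 11. The libraries of the 2 lines did not overlap in these genes. They were picked among the calls after their values were seen, so this gap is a description. Whether the H3.3K27A line was made from the knockout line is not given in the sources used here, and effects of line and mutation cannot be told apart.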

How the data were processed

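Chromatin was profiled by ChIP-seq of formaldehyde-fixed, sonicated wild-type cells, in biological duplicates per the labels, and each library was sequenced in 3 runs that the authors joined. The H3.3 and H3 libraries of day 0 were treated in the same way. Reads were aligned with STAR 2.5.2a to mm10, per the submitters' processing notes. Peaks were called with MACS2 2.2.6 without a control library, per the file headers, at p below 0.01, joining gaps up to 5000 bp, keeping calls of at least 1000 bp and 1 tag per position, and setting tags, extended to 200 bp, against the genome mean. For each call the authors deposited a fold enrichment (a ratio), a −log10 p and a pileup signal, as the columns are named per the file headers. The authors also deposited filtered lists, whose rule is not given in the sources used here. They hold calls above a −log10 p of 3.03 to 3.36, without 41 to 49 of the highest calls per library, which reached 46.5 to 63.0-fold. These lists give positions and 1 other constant column. Another 46 peaks of the 4 libraries, on other sequences, were left out. Differential tables of H3K27me3, H3.3 and H3 were deposited with a scaled read signal for each library, the log2 change written as day 0 minus day 6 and a false discovery rate (an adjusted p-value), per the file headers, and DiffBind is named in the submitters' processing notes. RNA was deposited as read counts per gene symbol, made by the authors with HTSeq, per the submitters' processing notes. Of 24465 symbols 24300 matched a RefSeq gene of GRCm38.p6, which gave start sites. Counts totalled 6.97 M to 22.03 M per library over 17 libraries. Whether counting used strand is not given, so antisense, overlapping and near-identical genes (receptor families, ribosomal protein genes) are uncertain. The labels do not say that RNA duplicates were separate cultures, so RNA p-values may rest on technical spread alone. Regions, overlaps, base composition and CG counts were computed in Python 3.11.15 with pandas 2.3.3 and samtools 1.23.1. Enrichment was tested with limma 3.58.1 (eBayes with trend) on log2 of the highest fold of any deposited call in a region, with the lowest listed fold where a library had no call. RNA was tested with edgeR 4.0.16 in R 4.3.3 (TMM, filterByExpr, 1 mean per group), with DESeq2 1.42.0 as an alternative. Both tests were tested on simulated data. P-values were adjusted by Benjamini-Hochberg over all regions or genes of a fit, with calls below 0.05. Exact permutation tests were two-sided. CPM are TMM-scaled. Named genes are those with a start site in the 10 most enriched regions of a class or in the 10 regions with the largest called difference in a direction, and up to 8 members of each gene list; other members are named where a list's count in a class is small. Gsx1, Bcl2, Rps15a and other shown promoters were picked from these after their values were seen, as were the RNA calls named. The members and gene lists were chosen with earlier results of these data known. Leaving out chromosome 8, or regions at least 5-fold enriched in both H3 libraries, was chosen after seeing the data. Some genes that the rule would name are not reported here. A deposited table named in the labels for this same comparison of antibodies was not analysed here. Depth and the number of duplicates limit precision, and weak regions near the calling threshold are the least certain.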

Additional observations from a re-analysis of the deposited data

How the results depend on the processing

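Over 141 alternative values, 84 stayed within the spread of the reported value (or within 1.5 times of a count) and 57 moved. The order of classes turned in places: without chromosome 8 genes at 1 CPM or more went from 53.5% of H3.3K27me3-only against 48.1% of unmarked genes to 46.3% against 48.2%, and without H3.3K27me3 replicate 1 the shared parts went from 62.4% and 48.4% to 35.7% and 58.9%. Peaks of at least 4-fold left 141 H3.3K27me3 and 828 H3K27me3 regions, of which 70.9% and 12.2% were shared, and 118, 20 and 967 promoters with both, H3.3K27me3 only and H3K27me3 only. With the list of 1 duplicate in place of regions found in both, regions numbered 5133 to 14783 and 6870 to 14985 over the libraries left out (12676 and 14783, and 14100 and 14985, for the antibody's own), and the shared part was 35.7% to 69.6% and 29.1% to 67.2%. Promoters with H3.3K27me3 only numbered 516 to 1020 with 1 library left out. The intersected part of duplicates gave 59.8% of H3.3K27me3 regions shared. Without chromosome 8 the shared parts were 56.5% and 40.5%. An overlap of at least 50% put 46.2% of shared, 34.7% of H3.3K27me3-only and 25.6% of H3K27me3-only regions on an H3.3 peak and 6.2% of the last on an H3 peak. Without chromosome 8, 41.5% of shared regions lay on an H3.3 peak, and 17.3%, 14.8% and 5.7% of the 3 classes on an H3 peak. Without it 66.9% of the authors' regions on shared regions were lower at day 6, and genes at 1 CPM or more (mean of 3 libraries) made up 41.5% of those with both. The limma count higher with H3.3K27me3 was 107 with calls in all 4 libraries and 59 to 1035 with 1 library left out. The count higher with H3K27me3 was 2300 with calls in all 4, 1902 after centring and 1618 to 3097 with 1 library left out. For H3.3K27A against the knockout, DESeq2 called 138 higher and 202 lower, no filter beyond 1 count 119 and 217, and leaving out 1 library 2 to 3 and 16 to 23; the cause was not tested. The duplicate numbers do not pair libraries: deviations from the group means correlated at -0.02 over regions and -0.05 and -0.02 over genes. With the replicate number as a block, limma called 1058 and 3529 regions and edgeR 23 higher and 62 lower genes in H3.3K27A. The specific classes are limited by calls near the threshold, which depend on tags per library.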
